A study of Homo sapiens with 6 samples.

Results

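The genes of the sarcomeric troponin complex and the tropomyosins were described in cardiomyocytes derived from human pluripotent stem cells (hiPSC-CMs). The genes were found by symbol in the series table, and all 9 were listed among 21134 genes: TNNT2, TNNT1, TNNI1, TNNI3, TNNC1, TPM1, TPM2, TPM3 and TPM4. RNA sequencing was carried out on 6 libraries: 2 of hiPSC-CMs with no treatment (control), 2 after 100 mM alcohol for 24 h, and 2 after 100 mM alcohol together with 1 μM losartan, a blocker of the angiotensin II type 1 receptor, for 24 h (co-treated). The labels name the cell line as H9, which is known as an embryonic stem cell line, and all libraries came from this single line. Losartan without alcohol was not analysed here, so every losartan library was also exposed to alcohol.

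Contraction of heart muscle is switched by calcium at the thin filament, a strand of actin on which tropomyosin lies. Calcium binds troponin C, troponin I then loosens its hold on actin, and troponin T passes the movement to tropomyosin, which uncovers the sites for myosin. The developing heart carries the slow skeletal form of troponin I, encoded by TNNI1, and replaces it with the cardiac form, encoded by TNNI3, as it matures.

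The promoters of 7 of the 9 genes were found in the RefSeq table of GRCh38.p14, and 3 of them are shown because they set the cardiac troponin genes TNNT2 and TNNI3 beside TNNT1, the slow skeletal troponin T gene, which had the lowest level of the 5 troponin genes among the 9. Each runs from 250 bases before to 50 bases after the start of the gene and is written 5′ to 3′ on the strand of the gene, which is the minus strand for all 3. They lie at chr1:201377631-201377930 (TNNT2), chr19:55149157-55149456 (TNNT1) and chr19:55157683-55157982 (TNNI3). Capitals mark matches on either strand to 3 motifs: the letters TATAAA for the TATA box, the letters GATAA for GATA factors and the letters CATTCC for the MCAT element.
TNNT2: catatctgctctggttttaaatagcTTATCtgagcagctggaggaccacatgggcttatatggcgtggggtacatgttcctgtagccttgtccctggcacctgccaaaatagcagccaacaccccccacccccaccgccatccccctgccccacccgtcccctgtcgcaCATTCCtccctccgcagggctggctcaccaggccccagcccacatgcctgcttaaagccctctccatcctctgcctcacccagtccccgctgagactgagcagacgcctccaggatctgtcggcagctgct
TNNT1: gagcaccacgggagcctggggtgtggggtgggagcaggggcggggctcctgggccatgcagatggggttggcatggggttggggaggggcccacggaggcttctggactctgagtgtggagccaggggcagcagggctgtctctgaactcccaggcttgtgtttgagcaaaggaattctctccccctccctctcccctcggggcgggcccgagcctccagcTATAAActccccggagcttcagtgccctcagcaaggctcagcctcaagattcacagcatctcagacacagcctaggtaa
TNNI3: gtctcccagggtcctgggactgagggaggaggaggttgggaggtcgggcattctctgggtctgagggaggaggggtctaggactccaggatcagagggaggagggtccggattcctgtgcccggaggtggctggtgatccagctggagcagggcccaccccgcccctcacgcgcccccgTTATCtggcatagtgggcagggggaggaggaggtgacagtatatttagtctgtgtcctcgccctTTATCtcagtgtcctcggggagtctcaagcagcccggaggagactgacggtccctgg
The TNNI3 promoter held 2 GATA matches, starting at -71 and -7 from the start site, and the TNNT2 promoter held 1 at -225 and an MCAT match at -81. The TNNT1 promoter held neither, and had a TATA match at -29. Among 35116 promoters of the same length, 22.7% held a GATA match, 14.03% an MCAT match and 11.5% a TATA match. The E-box letters CANNTG, left in lower case, occurred 5 times in the TNNT2 promoter and once in each of the other two, and in 68.7% of all promoters, while a CArG box was in none of the 3 and in 1.29% of all promoters. These matches describe the letters only, and overlaps between different motifs were allowed.

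The expected counts, which are estimated reads per gene, summed to between 4898287 and 5051448 per library, and the 9 genes held 1.21% to 1.62% of them. All 12 cardiomyocyte markers were above the floor of 3 counts. Levels are given as FPKM (reads scaled to gene length and library size). The summed FPKM of these markers was 33362 and 34126 in control, 31952 and 23475 in alcohol, and 26922 and 29846 in co-treated libraries. MYL7 made up 14512 and 16180, 12612 and 9321, and 10240 and 11847 of these sums, in the same order. On CPM, which is not divided by gene length, the sums were 57469 and 54198, 59305 and 48650, and 53991 and 54621. On that scale the highest and the lowest sum were both in the alcohol group. Against control, the log2 fold change was below 0 for 6 of 12 markers in alcohol (median -0.06) and 8 in co-treated cells (median -0.28). Markers of other cells were present at lower levels: the 5 smooth muscle markers summed to 1121 to 1436 in control, 529 to 1130 in alcohol and 760 to 823 in co-treated libraries, and the 7 fibroblast markers to 421 to 465, 481 to 515 and 466 to 517. In control, TAGLN (998 and 826) and CNN1 (417 and 279) made up most of the smooth muscle sums. MYH11 was at 4.77 and 4.34 there, SMTN at 13.1 and 10.7, and ACTG2 at 2.81 and 1.82. The 4 endothelial markers summed to 2.00 to 2.86 FPKM over all libraries, and the 4 pluripotency markers to 9.08 to 16.1. The skeletal muscle markers summed to 6.31 and 6.46 in control, 9.99 and 10.6 in alcohol, and 13.6 and 11.6 in co-treated libraries. Most of these sums came from TNNT3, described below, and ACTN3, at 4.14 and 3.82, 5.55 and 6.54, and 8.89 and 6.78. MYOG stayed between 0.52 and 1.14 FPKM and MYH2 between 0.04 and 0.24. Of the 8 skeletal muscle markers, MYOD1 and MYF5 were not listed, and MYH1 and MYBPC1 were at or under the floor in every library. In bulk RNA, fewer cells of a type and less RNA per cell cannot be told apart.

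In control cells, the 9 transcripts spanned more than 2 orders of magnitude of FPKM. TPM1, which encodes the main tropomyosin of striated muscle, was the gene with rank 4 of all genes by mean control FPKM, TNNT2 had rank 6 and TNNC1 rank 10. TNNI3 had rank 89, TPM2 rank 158, TNNI1 rank 179, TPM4 rank 489, TNNT1 rank 1563 and TPM3 rank 2163. Among neighbours in this order, TPM1 was above TNNT2 in 5 of 6 libraries, TPM2 was above TNNI1 in 3 of 6, and the control values of TNNT1 and TPM3 overlapped although TNNT1 was the higher of the pair in 6 of 6 libraries. The other neighbours kept their order in 6 of 6 libraries.

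**Figure D1:**
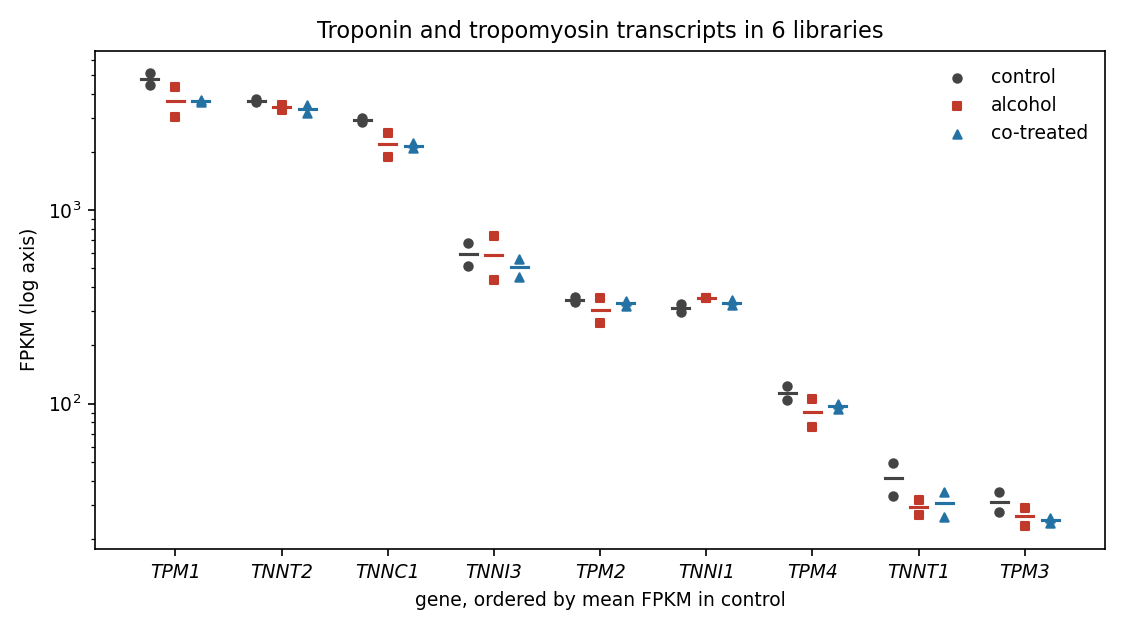
FPKM (log axis) of the 9 genes in 6 libraries, with 1 point per library and a bar at the mean of each group of 2. TPM1, TNNT2 and TNNC1 lie above the other genes in every library, and the control points of TNNT2, TNNC1 and TPM1 lie above all their alcohol and co-treated points.

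No member passed edgeR's quasi-likelihood test, with Benjamini-Hochberg adjustment at 0.05 over 14926 genes, in any comparison. Over all genes, it called 10 genes (0.067%) in alcohol versus control, 54 (0.362%) in co-treated versus control and 2 (0.0134%) in co-treated versus alcohol. DESeq2 and limma also called 0 of 9 members in each comparison. At an unadjusted p under 0.05, edgeR counted 4 of 9 members in alcohol versus control, all lower, beside 11.0% of all genes in either direction and 5.78% lower. It counted 3 of 9 in co-treated versus control, all lower, beside 12.6% and 6.37%, and 0 of 9 in co-treated versus alcohol, beside 5.55% in either direction. The log2 fold change was below 0 for 8 of 9 members in each comparison with control, beside 50.6% and 50.2% of all genes, and for 6 of 9 in co-treated versus alcohol, beside 49.7%. The counts in alcohol versus control leaned on alcohol replicate 2. Without it, the 4 members counted there were at -0.22 (TNNC1), -0.37 (TNNT1), -0.14 (TPM1) and -0.11 (TPM4). TNNI3 and TPM2, below 0 with all libraries, were then at 0.31 and 0.04. By FPKM, both libraries of a group lay below both libraries of the other for 4 of 9 members in alcohol versus control (17.7% of all genes), for 5 in co-treated versus control (16.3%) and for 1 in co-treated versus alcohol (14.3%). The opposite separation was found for 1 member (24.7% of all genes), 0 members (27.1%) and 0 members (18.0%). Both comparisons share the control libraries. The median log2 fold change of the members was -0.29 against control in alcohol, -0.28 in co-treated cells and -0.03 in co-treated versus alcohol, while that of all genes tested was -0.0033, -0.0017 and 0.0023. Since the labels do not say that the libraries of a group came from separate cultures, these p-values measure only the spread between libraries, which may be technical.

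**Figure D2:**
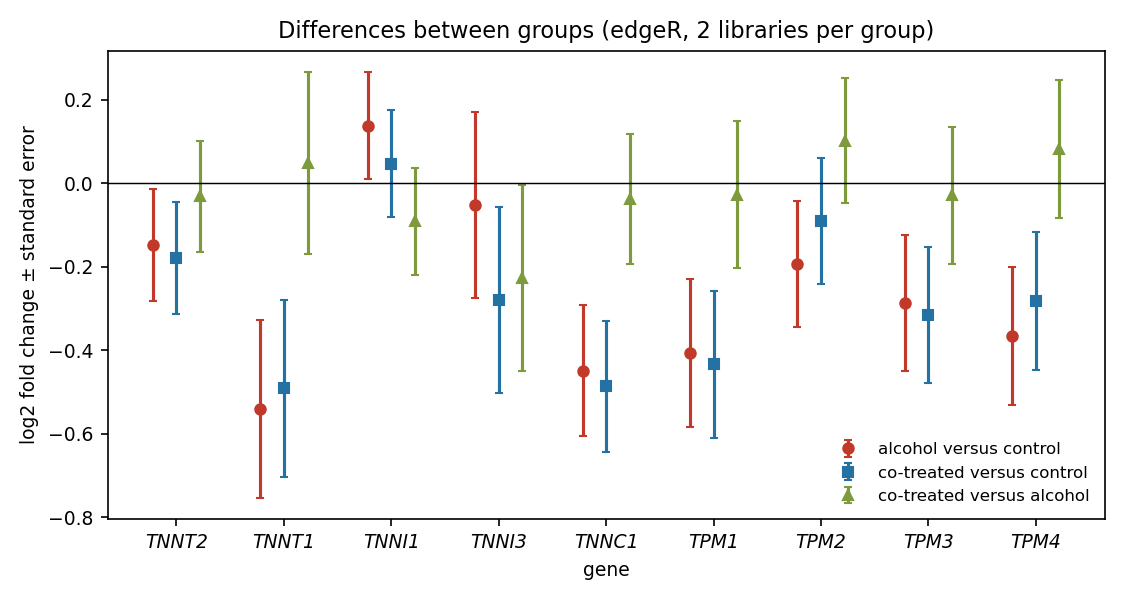
Log2 fold change with standard error from edgeR for the 9 genes in the 3 comparisons, 2 libraries per group, with a line at 0. In both comparisons with control, 8 of 9 estimates lie below 0, and that of TNNI1 above it. The estimates for co-treated versus alcohol lie between -0.23 and 0.10.

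TNNC1 encodes the calcium-binding subunit shared by heart and slow skeletal muscle. Its FPKM was 2863 and 2983 in control, 2501 and 1881 in alcohol, and 2084 and 2225 in co-treated libraries. All 4 exposed libraries were below both controls, and the alcohol libraries lay far apart. This arrangement was found for 3 of 9 members (TNNT2, TNNC1 and TPM1) and for 8.39% of all genes, and the opposite one for 0 of 9 members and 14.8% of all genes. The log2 fold change of TNNC1 was -0.45 (SE 0.16, edgeR adjusted p = 0.298) in alcohol and -0.49 (SE 0.16, edgeR adjusted p = 0.210) in co-treated cells. Without alcohol replicate 1, TNNC1 was called at -0.70 (edgeR adjusted p = 0.0320), and without alcohol replicate 2 the value was -0.22.

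TNNT2 encodes cardiac troponin T, the subunit that ties the complex to tropomyosin and a standard marker of cardiomyocytes. It had 3728 and 3615 FPKM in control, 3497 and 3308 in alcohol, and 3194 and 3496 in co-treated libraries. The mean was 3672 ± 79.9 (SD, n = 2) in control, 3403 ± 134 after alcohol and 3345 ± 214 in co-treated cells, and the edgeR estimate did not pass the test. Its log2 fold change was -0.15 (SE 0.13) in alcohol and -0.18 (SE 0.13) in co-treated cells.

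TNNT1 encodes the slow skeletal form of troponin T. Its FPKM was 49.6 and 33.4 in control, 31.9 and 26.5 in alcohol, and 35.1 and 25.9 in co-treated libraries. Both alcohol libraries lay below the controls, while the co-treated values overlapped the controls. The counts behind these values were low, at 299 and 200 in control and 155 to 206 in the other libraries, and the 95% Poisson intervals of the controls, 266 to 335 and 173 to 230, did not overlap each other. TNNT1 had the lowest log2 fold change among the members in alcohol, -0.54 (SE 0.21, edgeR adjusted p = 0.368), and was at -0.49 (SE 0.21, edgeR adjusted p = 0.353) in co-treated cells. Without control replicate 1 these values were -0.19 and -0.16, and TNNC1, at -0.45, was then below TNNT1 in alcohol. TNNT2 made up 98.9% ± 0.282 (SD, n = 2) of troponin T FPKM in control, 99.2% after alcohol and 99.1% in co-treated cells.

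TNNI1 encodes the slow skeletal troponin I of the fetal heart, and was the member with higher estimates against control in both comparisons. Its FPKM was 327 and 296 in control, 351 and 353 in alcohol, and 343 and 322 in co-treated libraries. Both alcohol libraries were above both controls, as for 24.7% of all genes, and the co-treated libraries overlapped the controls. In alcohol its log2 fold change was 0.14 (SE 0.13, edgeR adjusted p = 0.758), and it was 0.05 (SE 0.13, edgeR adjusted p = 0.920) in co-treated cells.

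TNNI3 encodes cardiac troponin I, the inhibitory subunit of the mature heart. It had 672 and 513 FPKM in control, 735 and 433 in alcohol, and 562 and 449.5 in co-treated libraries. The highest and the lowest value of the 6 libraries were both in the alcohol group, and all groups overlapped. Estimated log2 fold changes were -0.05 (SE 0.22, edgeR adjusted p = 0.960) in alcohol, -0.28 (SE 0.22, edgeR adjusted p = 0.665) in co-treated cells and -0.23 (SE 0.22, edgeR adjusted p = 0.952) between the co-treated and alcohol groups.

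The ratio of TNNI3 to TNNI1 is used as a measure of the fetal-to-adult switch of troponin I. On the FPKM scale it was 2.06 and 1.73 in control, 2.09 and 1.23 in alcohol, and 1.64 and 1.40 in co-treated libraries. The alcohol group spanned all other libraries, and both co-treated libraries lay below both controls. The log2 difference from control was -0.24 (SE 0.40, exact permutation p = 1) in alcohol and -0.32 (SE 0.17, exact permutation p = 0.333) in co-treated cells, and the co-treated group differed from the alcohol group by -0.08 (SE 0.40, exact permutation p = 1). With 2 libraries against 2, the smallest two-sided p this test allows is 0.333. The tests were part of 24 comparisons of 8 ratios, and after Benjamini-Hochberg adjustment none was below 0.05.

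Whether TNNI3 or TNNI1 was the more abundant transcript depended on the length given to TNNI1. The deposited gene length was 6162 bases for TNNI1 and 866 for TNNI3 in every library, each from 1 RefSeq model. On expected counts, which are not divided by length, the ratio of TNNI3 to TNNI1 was 0.279 and 0.235 in control, 0.283 and 0.166 in alcohol, and 0.222 and 0.189 in co-treated libraries. GENCODE release 29 lists 7 coding TNNI1 transcripts, from 565 to 6142 bases, and the longest holds 561 coding bases and 5488 bases of 3′ UTR. In counts per kb, the mean control ratio was 1.83 with the deposited length, 0.519 with the transcript of 1750 bases and 0.326 with that of 1100 bases. The length at which the genes would be equal was 3105 and 3687 bases in control, 3056 and 5202 in alcohol, and 3902 and 4578 in co-treated libraries, with 2 of the 7 transcripts longer and 5 shorter than all of these. As long as the same length is used for every library, the log2 differences between groups do not depend on its value. The transcript in use, and whether it was the same in all groups, was not tested.

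**Figure D3:**
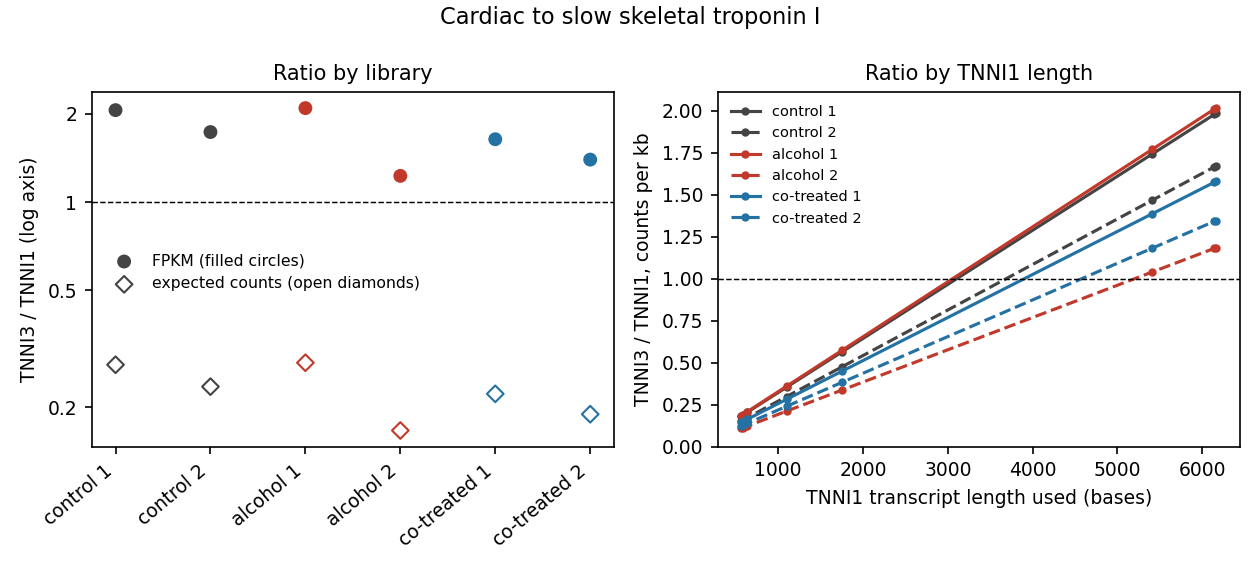
Left, TNNI3 to TNNI1 ratio (log axis) in each library on FPKM (filled circles) and on expected counts (open diamonds), with colours for control (grey), alcohol (red) and co-treated (blue) and a dashed line at 1. Right, the ratio in counts per kb against the TNNI1 length used, 1 line per library, for the deposited length of 6162 bases and the 7 coding GENCODE lengths. The FPKM ratio lies above 1 and the count ratio below 1 in all 6 libraries.

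Troponin T and troponin I were set against troponin C, since the 3 subunits form the complex together. The FPKM ratio of TNNT2 and TNNT1 to TNNC1 was 1.32 and 1.22 in control, 1.41 and 1.77 in alcohol, and 1.55 and 1.58 in co-treated libraries. All exposed libraries lay above both controls, by 0.32 (log2, SE 0.17) in alcohol and 0.30 (log2, SE 0.06) in co-treated cells, each at an exact permutation p = 0.333. Without alcohol replicate 2 the value in alcohol was 0.15. The ratio of TNNI3 and TNNI1 to TNNC1 was 0.349 and 0.271 in control, 0.434 and 0.418 in alcohol, and 0.434 and 0.347 in co-treated libraries. It was higher in both alcohol libraries than in both controls (log2 difference 0.47, SE 0.18), and the co-treated values overlapped the controls (log2 difference 0.34, SE 0.24), at 0.15 when control replicate 2 was left out and 0.52 when control replicate 1 was. This sum depends on the TNNI1 length: on CPM, which is not divided by length, the log2 difference was 0.57 in alcohol and 0.48 in co-treated cells, with no overlap with the controls in either and an exact permutation p = 0.333.

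TPM1 had 5086 and 4452 FPKM in control, 4325 and 3041 in alcohol, and 3601 and 3689.7 in co-treated libraries. All exposed libraries were below both controls, with the lowest value in alcohol replicate 2. Its estimate from edgeR (log2 fold change) was -0.41 (SE 0.18, edgeR adjusted p = 0.416) in alcohol and -0.43 (SE 0.18, edgeR adjusted p = 0.325) in co-treated cells. Without alcohol replicate 1, TPM1 was called at -0.72 (edgeR adjusted p = 0.0397), and without alcohol replicate 2 the value was -0.14.

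TPM4 encodes a tropomyosin of the actin cytoskeleton. Its FPKM was 123 and 105 in control, 106 and 75.3 in alcohol, and 94.3 and 99.3 in co-treated libraries. The co-treated libraries lay below both controls and the alcohol values overlapped the controls. The log2 fold change was -0.36 (SE 0.17, edgeR adjusted p = 0.439) in alcohol and -0.28 (SE 0.17, edgeR adjusted p = 0.517) in co-treated cells. Leaving out alcohol replicate 1 gave -0.66 in alcohol, and leaving out alcohol replicate 2 gave -0.11. With control replicate 1 left out, TPM4 was at -0.21 in alcohol and -0.14 in co-treated cells. Across the 6 libraries, TPM4 and TPM1 had a Pearson r of 0.973 on log2 CPM, and TPM1 and TNNC1 of 0.953. CPM is the expected count scaled to the library total. For these correlations the total was adjusted by TMM in edgeR, and a small prior count was added. The r values share library scaling and are given as a description.

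TPM2 encodes the beta form of muscle tropomyosin. It had 335 and 354 FPKM in control, 349.6 and 262 in alcohol, and 321 and 337 in co-treated libraries. The groups overlapped, and alcohol replicate 2 was below all other libraries. TPM3 encodes a tropomyosin of slow skeletal muscle, with shorter products in the cytoskeleton. Its FPKM was 34.8 and 27.5 in control, 29.04 and 23.3 in alcohol, and 24.2 and 25.65 in co-treated libraries. The co-treated libraries lay below both controls, and the alcohol values overlapped them. The log2 fold change against control was -0.19 (SE 0.15) for TPM2 and -0.29 (SE 0.16) for TPM3 in alcohol, and -0.09 (SE 0.15) and -0.31 (SE 0.16) in co-treated cells. The length deposited for TPM3, which weighs its transcripts by their estimated use, ranged over 11.8% between libraries. Over the 6461 expressed genes with several RefSeq models, the median range was 1.74% and the 90th percentile 10.2%.

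TPM1 made up 90.7% ± 0.715 (SD, n = 2) of tropomyosin FPKM in control, 89.7% ± 0.370 after alcohol and 89.0% ± 0.174 in co-treated cells. TPM2 made up 6.59%, 7.48% and 8.04%, TPM4 2.16%, 2.21% and 2.36%, and TPM3 0.590%, 0.644% and 0.608%. The ratio of TPM2 to TPM1 was 0.0658 and 0.0795 in control, 0.0808 and 0.0861 in alcohol, and 0.0892 and 0.0914 in co-treated libraries, with no overlap between the groups. Its log2 difference from control was 0.21 (SE 0.14) in alcohol and 0.32 (SE 0.14) in co-treated cells, and 0.07 and 0.18 without control replicate 1. The ratio of TPM4 to TPM1 was 0.0242 and 0.0235 in control, 0.0244 and 0.0248 in alcohol, and 0.0262 and 0.0269 in co-treated libraries, also with no overlap, and its log2 difference was 0.04 (SE 0.02) in alcohol and 0.15 (SE 0.03) in co-treated cells. Each of these differences had an exact permutation p = 0.333. The ratio of TPM3 to TPM1 overlapped between all groups.

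**Figure D4:**
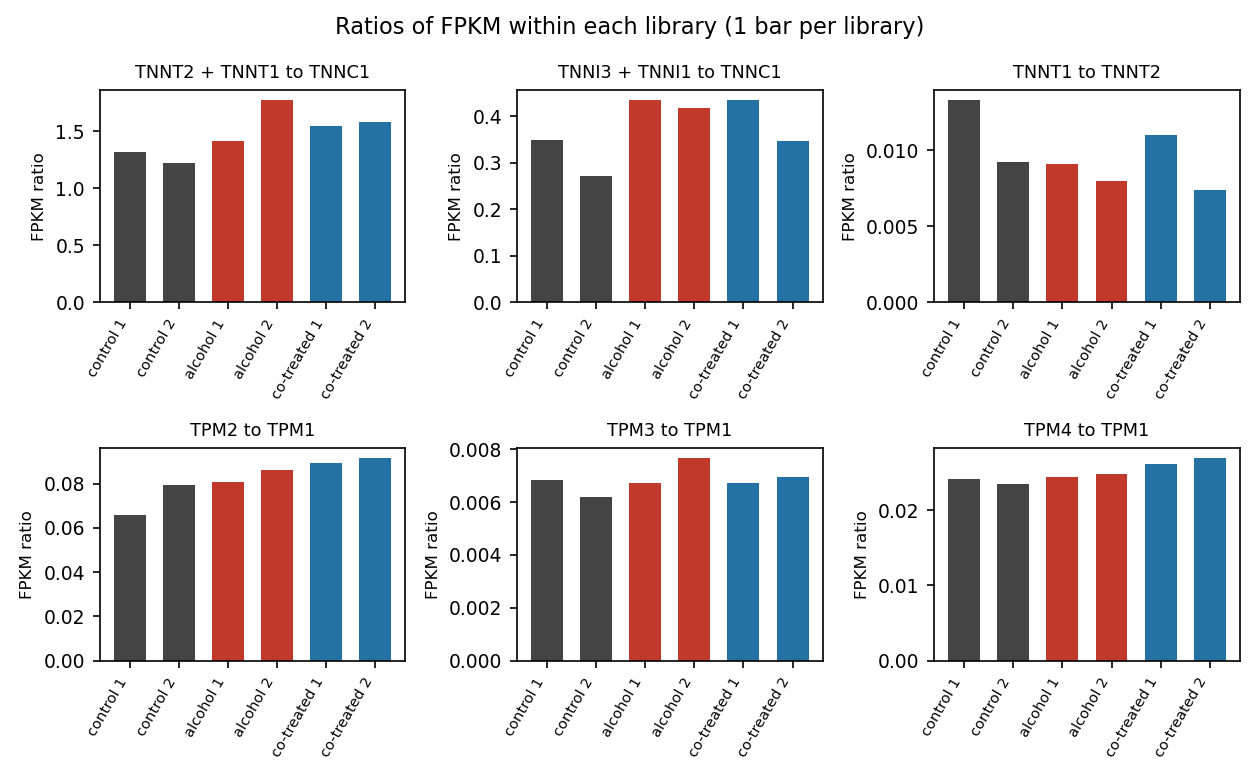
Ratios of FPKM within each library, 1 bar per library, in control (grey), alcohol (red) and co-treated (blue) libraries, each axis starting at 0. The ratios of TPM2 to TPM1 and of TPM4 to TPM1 are lowest in the control libraries and highest in the co-treated libraries, and that of troponin T to TNNC1 is lower in both controls than in the other 4 libraries.

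Alcohol replicate 2 was the lowest library on FPKM for 6 of 9 members and for 13.5% of all genes tested, and control replicate 1 the highest for 5 of 9 members and 12.7% of genes. The same alcohol library had the lowest sums of the cardiomyocyte and smooth muscle markers given above. Single cardiomyocyte markers went both ways. MYL2, MYL3, MYL4, MYL7, ACTN2, TTN and NPPA had their lowest FPKM in this library, while MYH6 (737) and NKX2-5 (151) had their highest. Without this library, the log2 fold change in alcohol versus control moved from -0.41 to -0.14 for TPM1, from -0.19 to 0.04 for TPM2, from -0.36 to -0.11 for TPM4 and from -0.45 to -0.22 for TNNC1. It also moved from -0.05 to 0.31 for TNNI3 and from -0.29 to -0.10 for TPM3. The part of the smooth muscle signal in these values was not tested. For TNNI1 and TNNI3, the genes most alike over the 6 libraries among 10771 genes were PAQR6 (Pearson r = 0.984), ZNF274 (0.975) and VIM (0.974) for TNNI1, and FZD2 (0.997), TMEM178A (0.990) and MAP4 (0.989) for TNNI3. These are the highest of 10771 values for each gene, taken over 6 libraries, and are given as a description. On TMM-adjusted log2 CPM, the scale of these correlations, the range was 0.26 for TNNI1 and 0.84 for TNNI3.

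Of the fast skeletal troponin genes, TNNI2 was at or under the floor in all libraries, with 0 to 2 counts. TNNT3 had 1.33 and 1.52 FPKM in control, 3.18 and 3.25 in alcohol, and 3.74 and 3.81 in co-treated libraries. All exposed libraries were above both controls, on 8 to 23 counts per library, with a log2 fold change of 1.13 (SE 0.46, edgeR adjusted p = 0.390) in alcohol and 1.37 (SE 0.45, edgeR adjusted p = 0.224) in co-treated cells. TNNC2 had 3.53 and 4.72 FPKM in control, 5.00 and 1.82 in alcohol, and 0.61 and 2.07 in co-treated libraries. Its alcohol values overlapped the controls and its co-treated values lay below them, on 2 to 17 counts per library, with edgeR adjusted p = 0.362 in co-treated versus control.

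Among 18 thin filament partners tested, 0 were called in alcohol versus control by edgeR, and 0 by DESeq2 or limma, with 1 higher and 3 lower at an unadjusted p under 0.05, beside 11.0% of all genes in either direction and 5.78% lower, and the median log2 fold change was -0.15. ACTA2 alone was called in this comparison by edgeR when a minimum of 10 counts in each library was set, and when control replicate 1 was left out. The log2 fold change was below 0 for 11 of 18 in alcohol versus control, beside 50.6% of all genes. In co-treated versus control, 0 were higher and 6 lower at an unadjusted p under 0.05, beside 12.6% in either direction and 6.37% lower, 14 of 18 were below 0, beside 50.2% of all genes, and the median was -0.13. In that comparison 1 of 18 was called, ACTA2, which encodes smooth muscle actin and is also made by immature cardiomyocytes. ACTA2 had 507 and 580.2 FPKM in control, 337 and 203 in alcohol, and 248 and 224 in co-treated libraries. It fell by 1.25 on the log2 scale in co-treated cells (SE 0.20, edgeR adjusted p = 0.0203), and its value in alcohol was -1.04 (SE 0.20, edgeR adjusted p = 0.0797). The summed smooth muscle markers were also below both controls in the co-treated libraries. Of the single markers, TAGLN (998 and 826 FPKM in control, 431 and 532 in co-treated libraries) and MYH11 lay below both controls, as did 16.3% of all genes. CNN1, SMTN and ACTG2 overlapped the controls. The part of these markers in the ACTA2 result was not tested. With limma, with no filter on low counts, or without either co-treated replicate, 0 of 18 partners were called in this comparison. Without alcohol replicate 1, ACTA2, ACTA1 and ACTC1 were called in each comparison with control, and in co-treated versus control the same 3 genes were also called without alcohol replicate 2 and in a fit of the 2 groups alone. With all libraries, ACTC1, the cardiac actin, did not pass, at -0.55 (SE 0.32) in alcohol and -0.85 (SE 0.32) in co-treated cells. Among the partners in alcohol versus control, TMOD3, a tropomodulin that caps the actin filament, had the next lowest p after ACTA2, at -0.60 (SE 0.19, edgeR adjusted p = 0.262).

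Of 15 kinases, phosphatases and ubiquitin ligases that act on the thin filament and 11 splicing regulators of troponin T and tropomyosin transcripts, edgeR, DESeq2 and limma called 0 in either comparison with control, and without alcohol replicate 1 edgeR called FBXO32 in alcohol versus control (0.83, adjusted p = 0.0241). At an unadjusted p under 0.05 in alcohol versus control there were 1 higher and 1 lower in the first list and 1 higher and 0 lower in the second, beside 11.0% of all genes in either direction, with median log2 fold changes of -0.02 and 0.02. FBXO32, a muscle ubiquitin ligase, was at 0.56 (SE 0.18, edgeR adjusted p = 0.250), TNNI3K, a cardiac kinase that binds troponin I, at -0.35 (SE 0.14, edgeR adjusted p = 0.394), RBM24, a splicing regulator of heart muscle, at 0.28 (SE 0.12, edgeR adjusted p = 0.414), and RBFOX1, a splicing regulator of muscle and brain, at 0.42 (SE 0.21, edgeR adjusted p = 0.495). In co-treated versus control, at an unadjusted p under 0.05, there were 0 higher and 2 lower in the first list. The second list had 1 higher and 1 lower, beside 12.6% of all genes in either direction and 6.37% lower. The median log2 fold changes there were 0.02 and 0.08.

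By RefSeq coordinates on GRCh38.p14, the 5 troponin genes among the members lie in 2 pairs and 1 single locus. TNNT2 (chr1:201359014-201377680) and TNNI1 (chr1:201403784-201421730) are 26103 bases apart, and TNNT1 (chr19:55132698-55149206) and TNNI3 (chr19:55151767-55157732) are 2560 bases apart, each on the minus strand. Against control, the log2 fold changes in alcohol and co-treated cells were -0.15 and -0.18 for TNNT2 beside 0.14 and 0.05 for TNNI1, and -0.54 and -0.49 for TNNT1 beside -0.05 and -0.28 for TNNI3. The difference within a pair was not tested. TNNC1 lies alone at chr3:52451100-52454041 on the minus strand. The tropomyosin genes are dispersed, with TPM1 at chr15:63042747-63071915, TPM2 at chr9:35681993-35690056, TPM3 at chr1:154155308-154192100 and TPM4 at chr19:16067538-16103002.

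Some members share sequence with other genes, and their part in the counts was not tested. All 50-base windows of the coding GENCODE transcripts were matched on both strands to the transcripts of other genes. Of the TNNI3 windows, 37.7% matched the overlapping gene AC010327.1. Of the TPM1 windows, 30.5% matched among 331 other genes, most often TPM1-AS on the opposite strand (1925 of 2670 shared windows). For TPM4, 24.3% matched among 4 other genes, and for TPM3, 5.53% matched pseudogenes and other genes. None of the windows of TNNC1 and TPM2 matched another gene. Whether strand was used in counting is not given in the sources used here. The expected counts were whole numbers in all 6 libraries for TNNT2, TNNT1, TNNI3 and TNNC1, and in none for the other members.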

How the data were processed

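RNA sequencing libraries of 3 groups with 2 replicates each were analysed, grouped by the titles in the labels. The authors deposited an expected count, an FPKM and a gene length per gene and library, and a series table of the same FPKM with symbols. The submitters' processing notes name HISAT2 2.0.4, Bowtie2 2.2.5, RSEM 1.2.12 and hg38, without the role of each. Of the expected counts, 33.9% were not whole and were rounded. Genes missing from a library's table were set to 0.

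The expected counts were fitted with edgeR 4.0.16 (quasi-likelihood F test, two-sided, TMM, filterByExpr, all 6 libraries in 1 fit, Benjamini-Hochberg at 0.05 over 14926 genes). DESeq2 1.42.0, limma 3.58.1 on log2(FPKM + 1) and log2(FPKM + 0.1), other filters and scalings, and fits without each library were alternatives. The scripts' fits were tested on simulated data. Ratios of FPKM were compared by exact permutation tests. The standard error of a fold change is its size divided by the square root of F. The floor of 3 counts is 0.594 to 0.612 CPM, and floors and intervals cover counting error only.

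The named genes were the 9 members, the genes called in each list or otherwise the 2 with the lowest p in alcohol versus control, and the 3 genes most like TNNI1 and TNNI3 among those with a mean of at least 10 CPM. ACTC1 was named outside this rule, after its values were seen. The members and lists were chosen with earlier results of these data known. Promoters and coordinates come from RefSeq on GRCh38.p14 and transcript lengths from GENCODE release 29.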

Additional observations from a re-analysis of the deposited data

How the results depend on the processing

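With 2 libraries per group, the number of genes called depended on the processing, while the members' calls changed under 1 setting. In alcohol versus control, where 10 genes were called, DESeq2 called 72, limma 0 with a pseudocount of 1 and 2 with 0.1, no filter on expression 2, a minimum of 10 counts in each library 26, only the compared groups 3, and leaving out 1 library between 1 and 220. In co-treated versus control (54 called) these were 123, 2, 3, 15, 78, 158 and between 2 and 184, and in co-treated versus alcohol (2 called) 5, 1, 2, 1, 0, 4 and between 1 and 24. The lowest counts, 1 in alcohol versus control without alcohol replicate 2 and 2 in co-treated versus control without co-treated replicate 2, and the highest, 220, 184 and 24 without alcohol replicate 1, show which libraries moved the counts most. The cause was not tested. Size factors of DESeq2's kind in edgeR gave 10, 54 and 2.

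Members called ranged from 0 to 2 in alcohol versus control when 1 library was left out, 2 (TNNC1 and TPM1) without alcohol replicate 1, and were 0 under all other alternatives with adjusted p-values. At an unadjusted p under 0.05, a threshold added after seeing the data, they were 4, 3 and 0. Leaving out a library leaves 1 library in a group, which is assumed to vary like the others.

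Replicates share only a number in the labels. The deviations of same-numbered libraries had a correlation of 0.226 between control and alcohol, 0.0204 between control and co-treated, and 0.107 between alcohol and co-treated libraries. With the replicate number as a block, edgeR called 48, 136 and 5 genes and 0 members, ACTA2 was also called in alcohol versus control (-1.07, adjusted p = 0.0297), and the TPM1 value for co-treated versus alcohol was 0.000395 in place of -0.03.

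The sign of small differences changed when 1 library was left out. For log2 ratios, the values then ran from -0.62 to 0.15 for TNNI3 to TNNI1 and from -0.14 to 0.27 for TPM2 to TPM3 in alcohol versus control, from -0.0017 to 0.14 for TPM3 to TPM1 in co-treated versus control, and in co-treated versus alcohol from -0.47 to 0.30 for TNNI3 to TNNI1, -0.21 to 0.36 for TNNT1 to TNNT2, -0.16 to 0.025 for TPM3 to TPM1, -0.30 to 0.028 for troponin I to TNNC1 and -0.18 to 0.15 for troponin T to TNNC1. For log2 fold changes, they ran from -0.52 to 0.31 for TNNI3 and -0.45 to 0.039 for TPM2 in alcohol versus control, and from -0.035 to 0.14 for TNNI1 in co-treated versus control. In co-treated versus alcohol they ran from -0.11 to 0.044 for TNNT2, -0.18 to 0.24 for TNNT1, -0.59 to 0.24 for TNNI3, -0.26 to 0.22 for TNNC1, -0.29 to 0.29 for TPM1, -0.13 to 0.36 for TPM2, -0.22 to 0.17 for TPM3 and -0.17 to 0.38 for TPM4, and limma gave 0.0073 for TPM1 with either pseudocount. Of 126 alternative values of the members in each comparison, 121, 125 and 111 kept their direction and side of the threshold.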
